A study of Chlorocebus aethiops with 30 samples.

Results

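IL6, IL1A and IL11 are the 3 cytokine genes described here, chosen by name among the 1237 genes of a table that compares Vero cells collected directly after trypsin with Vero cells collected directly after TrypLE. All 3 were found there, once each. IL6 and IL11 were also among the 340 genes for which a second table gives 1 mean per group, whereas IL1A was not in that table and is described at 0 h alone. Vero cells are kidney epithelial cells of the African green monkey, labelled as wild type in all samples and grown in MEM with fetal bovine serum. The study holds 30 samples in 10 groups of 3. The enzymes were trypsin at 37 °C, TrypLE at 37 °C, and TrypLE kept at 4 °C and used at 25 °C, each sampled at 0, 8 and 24 h, where TrypLE is a recombinant substitute for trypsin. The control cells were detached with an enzyme-free solution at 37 °C and collected at once. Cells of the 0 h groups were collected directly after the enzyme, while cells of the 8 h and 24 h groups went back into culture and were then detached with the enzyme-free solution that the control cells also received. Values of single libraries were analysed for trypsin and TrypLE at 0 h, with 3 libraries each, and group means for these and 5 further groups. The 3 cold TrypLE groups were not analysed here.

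Cytokines are secreted proteins by which cells signal to each other, and epithelial cells make some of them when they are damaged or stressed. IL-6 and IL-11 belong to one family: each binds its own receptor, and both then use the shared subunit gp130, encoded by IL6ST, to activate JAK kinases and the transcription factor STAT3. IL-1α, the product of IL1A, acts through another receptor, which leads to NF-κB and MAP kinases, and it works as an alarm signal because its precursor is already active when a dying cell releases it. Genes of this kind are switched on by NF-κB, AP-1 and related factors, and their RNAs are often short-lived. No protein or promoter sequence is shown.

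The libraries gave 1656319 to 1827824 reads over the listed genes after trypsin and 1957344 to 2192333 after TrypLE. The depth over all genes is not known. The 3 libraries of a group are called biological replicates in the study's design, with no word on separate cultures, so p-values measure the spread between these samples alone. Of the 8 epithelial markers looked up, 1 was in the 0 h table, TJP1, a tight junction scaffold, with 2180 ± 338 normalized counts after trypsin and 1760 ± 61.5 after TrypLE (n = 3 each, SD). None of the fibroblast, immune or endothelial markers was listed. Since the table holds a selected set of genes, this does not show which markers the cells lack.

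The first comparison asks how trypsin and TrypLE differ at 0 h. All 3 cytokine RNAs had lower means after trypsin, and IL1A and IL11 passed the threshold of 0.05 on the adjusted p in the authors' deposited table, while IL6 did not. Of the 15194 genes tested, 251 passed (1.65%), with 216 lower after trypsin (1.42%) and 35 higher (0.230%). The table lists only genes with an unadjusted p below 0.05, of which 20.3% passed and 57.1% had the lower value after trypsin whatever the adjusted p. With scaling factors that rest on the listed genes, the edgeR calls were 77 higher and 106 lower (TMM) or 53 higher and 77 lower (median ratio). The median log2 fold change of the listed genes was then -0.13 or -0.09, against -0.29 with the authors' factors. Such factors centre genes that were picked for a difference between the groups. They shift the fold changes of listed genes toward 0, so refits with them cannot decide which scaling is right. In bulk RNA, fewer cells that make a cytokine and less of its RNA per cell cannot be told apart.

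IL1A had the largest relative difference of the 3. Its normalized counts were 683.3, 587.7 and 825.0 in the trypsin libraries, against 1212.4, 959.6 and 1058.8 in the TrypLE libraries. Every trypsin library lay below every TrypLE library, with a gap of 134.6 normalized counts between the closest pair. The means were 698.7 ± 119.4 after trypsin and 1076.9 ± 127.4 after TrypLE (n = 3 each, SD). The authors' deposited table puts the log2 fold change at -0.62 (adjusted p = 0.00310), so that IL1A RNA was 35.1% lower after trypsin. A DESeq2 refit of the listed genes gave the same fold change with an SE of 0.16 (adjusted p = 0.0141). IL1A was also called by edgeR (adjusted p = 0.0467). It was not called under TMM factors from the listed genes, where edgeR gave -0.45 on the log2 scale (adjusted p = 0.157). When DESeq2 was refitted without 1 library, 3 libraries were needed for the call: leaving out trypsin replicate 2 gave -0.51 (adjusted p = 0.226), leaving out TrypLE replicate 1 gave -0.53 (adjusted p = 0.156), and leaving out TrypLE replicate 3 gave -0.64 (adjusted p = 0.116). With edgeR, leaving out any library but trypsin replicate 3 ended the call.

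IL11 had the highest level per length of the 3. Its normalized counts were 8372.9, 8440.6 and 8411.6 in the trypsin libraries, against 9851.9, 11731.9 and 11138.3 in the TrypLE libraries. The trypsin libraries were nearly equal, the TrypLE libraries were all higher and more spread, and the closest pair was 1411.3 normalized counts apart. The means were 8408.4 ± 34.0 after trypsin and 10907.4 ± 961.1 after TrypLE (n = 3 each, SD). The authors' deposited table gives -0.38 on the log2 scale (adjusted p = 0.0193), or 22.9% less IL11 RNA after trypsin. The refits of the listed genes did not call it, with an adjusted p of 0.0942 by DESeq2 (SE 0.12) and 0.286 by edgeR. Its log2 fold change was -0.21 under TMM factors (unadjusted p = 0.0933 by edgeR) and -0.17 under median-ratio factors (unadjusted p = 0.137 by edgeR). The adjusted p was 1.00 under each. Unlisted genes could not add to the ranks of that adjustment, so it can be too high. Without TrypLE replicate 1 it was -0.44, and DESeq2 called it (adjusted p = 0.0172).

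IL6, the best known of the gp130 cytokines, had overlapping groups. Its normalized counts were 1509.4, 1093.9 and 1184.0 in the trypsin libraries, against 1744.5, 1519.5 and 1466.1 in the TrypLE libraries. Trypsin replicate 1 lay above TrypLE replicate 3, and the other trypsin libraries lay below all TrypLE libraries. The means were 1262.4 ± 218.6 after trypsin and 1576.7 ± 147.7 after TrypLE (n = 3 each, SD). The log2 fold change of -0.32 missed the threshold by the authors' deposited table (adjusted p = 0.472) and also in refits of all 6 libraries by edgeR (adjusted p = 0.750) or DESeq2 (adjusted p = 0.737, SE 0.15). Without trypsin replicate 1 the log2 fold change was -0.47, and DESeq2 called it (adjusted p = 0.0291) while edgeR did not (adjusted p = 0.102). Groups without overlap, as for IL1A and IL11, were found for 75.6% of the genes in this table, and all trypsin libraries lay below all TrypLE libraries for 47.0%.

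**Figure D1:**
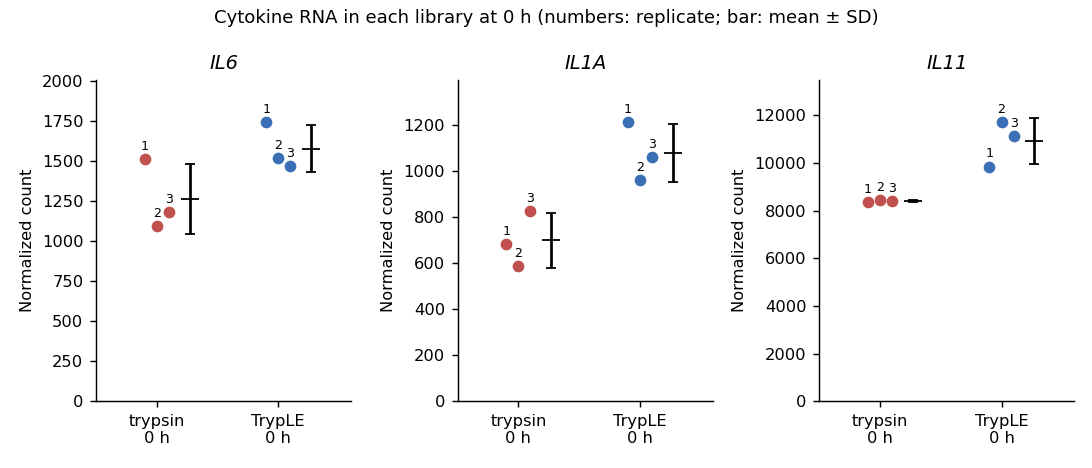
Normalized count (y axis, starting at 0) of IL6, IL1A and IL11 in each library at 0 h, with trypsin left of TrypLE. Points are libraries numbered by replicate, and bars give the mean ± SD of 3 libraries. The groups overlap for IL6 and not for IL1A or IL11, and the 3 trypsin libraries of IL11 lie between 8372.9 and 8440.6.

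The libraries also differed along gene length, and IL6 moved with this. Relative to the mean of the 6 libraries, the 270 listed genes under 1000 bases with a mean of at least 50 had a median log2 value of -0.09, -0.47 and -0.33 in trypsin replicates 1, 2 and 3, against 0.41, 0.27 and 0.21 in TrypLE replicates 1, 2 and 3. On the same scale IL6 was at 0.11, -0.36 and -0.24 in the trypsin libraries, against 0.32, 0.12 and 0.06 in the TrypLE libraries. IL6 thus had the same order of libraries within each group as the short genes, although at 1681 bases it is not one of them. IL1A was at -0.33, -0.55 and -0.06, against 0.49, 0.16 and 0.30, and IL11 at -0.19, -0.18 and -0.19, against 0.04, 0.29 and 0.22. IL1A has 2930 bases and IL11 has 2192. With a trend on gene length removed from each library, the log2 fold changes in edgeR were -0.05 for IL6 (adjusted p = 1.00), -0.22 for IL11 (adjusted p = 1.00) and -0.60 for IL1A (adjusted p = 0.112). The trend was estimated from listed genes alone, and its part in the results was not tested. Removing it also recentred the listed genes, whose median log2 fold change became 0.03, against -0.29 in edgeR with the authors' factors. With TMM factors and no trend removed, edgeR gave -0.15 for IL6, -0.21 for IL11 and -0.45 for IL1A. Recentring and gene length thus cannot be told apart in the refit without the trend. Among the 239 listed genes of 1500 to 3000 bases, the range that holds all 3 cytokines, 158 were lower and 81 higher after trypsin, and their median log2 fold change by the authors' deposited table was -0.31, against -0.29 over all 1237.

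**Figure D2:**
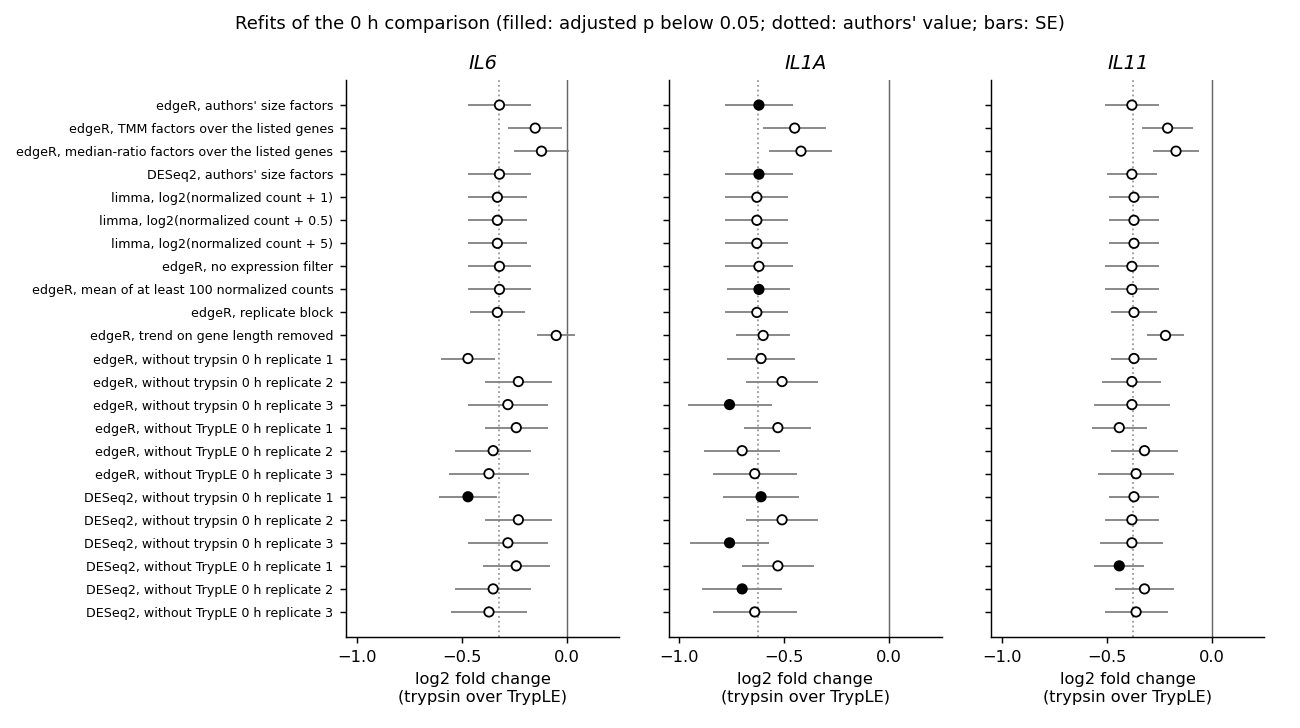
Log2 fold change of trypsin over TrypLE at 0 h (x axis) for IL6, IL1A and IL11 in each refit of the listed genes (y axis). Bars give the SE, filled points an adjusted p below 0.05, and the dotted line the value of the authors' deposited table. All points are below 0, and IL1A is filled most often. Removing the length trend, which also recentres the listed genes, brings IL6 to -0.05.

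The genes most like each cytokine over the 6 libraries at 0 h were taken by Pearson's r of log2(normalized count + 1), among 809 genes with a symbol and a mean of at least 50 for each. The libraries share the groups and the length trend, so r describes likeness only. For IL6 they were RPL39L, a ribosomal protein paralogue, RPL19, of the large ribosomal subunit, and BEX1, with r of 0.994, 0.994 and 0.991. For IL1A they were PBDC1, SDHAF4, an assembly factor of succinate dehydrogenase, and TAF13, a subunit of the general transcription factor TFIID, with r of 0.985, 0.980 and 0.976. For IL11 they were CRIP1, MYC, a growth-promoting transcription factor, and CSRNP1, with r of 0.989, 0.989 and 0.986. MYC had 2788.0, 2960.1 and 2756.6 normalized counts in the trypsin libraries, against 3489.9, 4241.5 and 4222.1 in the TrypLE libraries. Like IL11 it was nearly equal among the trypsin libraries and lowest in replicate 1 of TrypLE.

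Levels of the 3 genes can be compared per length on the FPKM scale of the authors' group means. At 0 h the IL11 level was 243.5 after trypsin and 316.5 after TrypLE, the IL6 level 47.7 after trypsin and 59.7 after TrypLE, and the IL1A level, computed here from its normalized counts, 15.1 after trypsin and 23.4 after TrypLE. The order IL11, IL6, IL1A was the same after both enzymes. Per length IL11 ranked 60 after trypsin and 74 after TrypLE among the 1237 listed genes.

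The second question is how IL6 and IL11 stood against the enzyme-free control and how they moved over a day of regrowth. These are the authors' group means, which carry no error and no n, so differences in this and the following paragraphs have no replicate check. The table holds genes that the authors selected, so shares over its 340 genes do not describe the whole transcriptome. All ratios to the control share the same control samples, and their p-values cannot be had from means. At 0 h the cells and the control also differ in the reagent they were collected with, which cannot be told apart from the treatment.

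IL6 was far above the control at 0 h and at or below it at 24 h. After trypsin its mean was 47.7 at 0 h, 26.8 at 8 h and 8.92 at 24 h, against 12.5 in the enzyme-free control. After TrypLE it was 59.7 at 0 h, 32.8 at 8 h and 12.1 at 24 h, against the same control. The trypsin means were thus 3.83, 2.15 and 0.716 times the control, and the TrypLE means 4.79, 2.63 and 0.975 times. Of the 340 genes, 8 (2.35%) were at least 2-fold higher at 0 h after trypsin than in the control, and 16 (4.71%) after TrypLE. IL6 had the highest ratio of TrypLE at 0 h to the control of all 340, and 2 genes were above it after trypsin. Both genes above it after trypsin are singled out after their values were seen: LOC103219498, with 9.45 after trypsin and 0.407 in the control, and 1 gene that the tables do not name. The median log2 ratio of the 340 genes was -0.50 for trypsin at 0 h and 0.07 for TrypLE at 0 h, against 1.94 and 2.26 for IL6.

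At 8 h, IL6 was still among the genes at least 2-fold above the control after both enzymes, where 2.65% of the 340 were after trypsin and 3.53% after TrypLE. These cells and the control cells were detached with the same enzyme-free solution, but only these cells had gone back into culture. The 24 h mean of IL6 was 0.333 times the 8 h mean after trypsin, where 6.18% of the 340 genes were at least 2-fold lower, and 0.370 times after TrypLE, where 7.06% were. IL6 was lower after trypsin than after TrypLE at each time, at 0.799, 0.817 and 0.735 times the TrypLE mean at 0, 8 and 24 h. These log2 ratios were -0.32, -0.29 and -0.45, against medians of -0.31, 0.08 and 0.03 over the 340 genes. At 0 h the ratio of IL6 was thus near that of the median gene. In order of level the IL6 groups were TrypLE 0 h, trypsin 0 h, TrypLE 8 h, trypsin 8 h, control, TrypLE 24 h and trypsin 24 h, with a ratio of 6.69 between the first and the last. The median of that ratio over the 340 genes was 2.28, and 21 genes had a larger one than IL6. Whether neighbours in this order differ cannot be said from means. At 0 h, where the libraries are known, trypsin and TrypLE did not differ beyond the test's threshold.

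**Figure D3:**
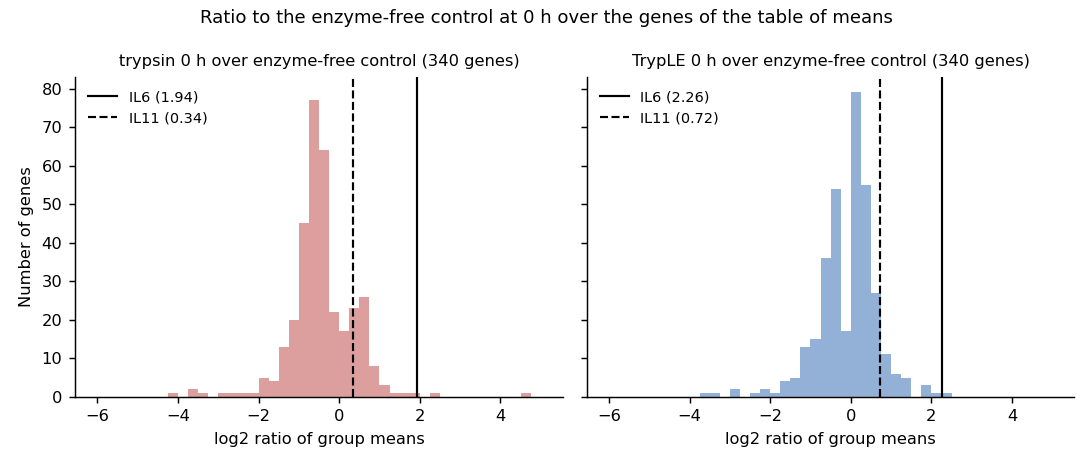
Log2 ratio of the group mean at 0 h to the enzyme-free control (x axis) over the 340 genes of the table of means (y axis, number of genes), for trypsin on the left and TrypLE on the right. Vertical lines mark IL6 at 1.94 and 2.26 and IL11 at 0.34 and 0.72. IL6 lies at the upper end of both distributions, and most genes lie below 0 after trypsin.

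IL11 followed another course. After trypsin its mean was 243.5 at 0 h, 277.4 at 8 h and 131.5 at 24 h, against 192.5 in the enzyme-free control. After TrypLE it was 316.5 at 0 h, 84.0 at 8 h and 242.4 at 24 h, against the same control. It was thus 1.26, 1.44 and 0.683 times the control after trypsin and 1.64, 0.436 and 1.26 times after TrypLE. At 0 h it was above the control after both enzymes by less than 2-fold. At 8 h the TrypLE mean was at least 2-fold below the control, as for 13.8% of the 340 genes, and the trypsin mean was above it. Within the TrypLE course the 8 h mean was 0.265 times the 0 h mean, where 10.6% of the genes were at least 2-fold lower, and the 24 h mean was 2.89 times the 8 h mean, where 12.9% were at least 2-fold higher.

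For IL11 the order of the enzymes differed between times. Its trypsin mean was 0.769 times the TrypLE mean at 0 h, 3.30 times at 8 h and 0.542 times at 24 h. The log2 ratio at 0 h was -0.38, near the median of -0.31 over the 340 genes. At 8 h, 12 genes (3.53%) were at least 2-fold higher after trypsin than after TrypLE, and 1 gene had a larger ratio than IL11. That gene, named after its value was seen, is EGR1, an early response transcription factor, with 21.0 after trypsin and 5.78 after TrypLE. At 24 h the ratio of IL11 was among the lowest, with 17 genes below it. In order of level the IL11 groups were TrypLE 0 h, trypsin 8 h, trypsin 0 h, TrypLE 24 h, control, trypsin 24 h and TrypLE 8 h. The ratio of the highest to the lowest was 3.77, and 64 of the 340 genes had a larger one. Of these neighbours none can be tested on means.

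**Figure D4:**
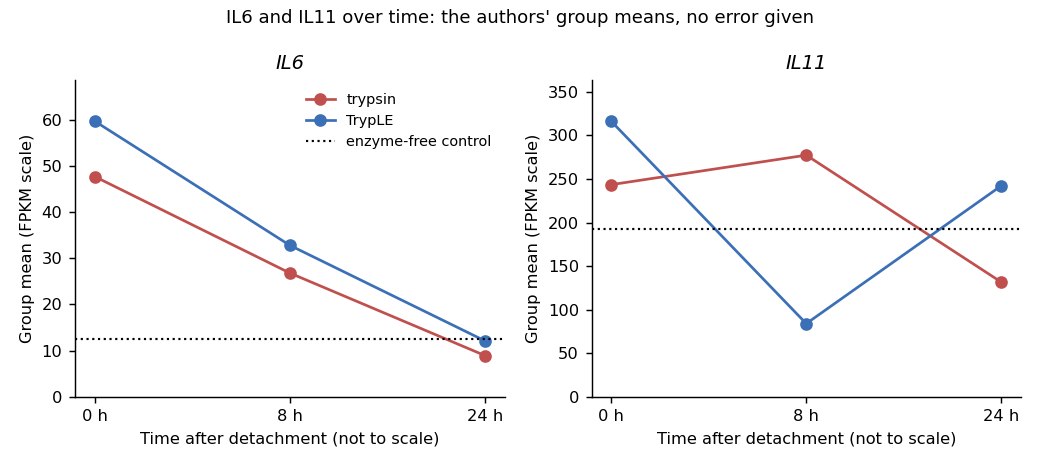
Group mean on the FPKM scale (y axis, starting at 0) of IL6 and IL11 at 0, 8 and 24 h after trypsin and TrypLE, with the enzyme-free control as a dotted line. Points are the authors' group means without error. IL6 is highest at 0 h and near the control at 24 h after both enzymes, whereas IL11 at 8 h is at 277.4 after trypsin and 84.0 after TrypLE.

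The genes whose 7 group means were most like those of IL6, by Pearson's r of log2(mean + 1) among 149 genes with a symbol, were THBS1, a matricellular protein, CITED2, a transcriptional coregulator, and HPS6, a subunit of a complex that forms lysosome-related organelles, with r of 0.784, 0.764 and 0.674. THBS1 had 35.2, 45.8 and 11.6 at 0, 8 and 24 h after trypsin and 44.3, 33.5 and 15.9 after TrypLE, against 33.2 in the control. It shared the low means at 24 h with IL6 but not the high ratio to the control at 0 h. For IL11 they were EDN1, the vasoactive peptide endothelin, MCL1, an anti-apoptotic protein, and EGR3, an early response transcription factor, with r of 0.880, 0.819 and 0.763. EDN1 had 6.96, 6.53 and 4.69 at 0, 8 and 24 h after trypsin and 9.39, 3.45 and 6.98 after TrypLE, against 4.05 in the control. Like IL11, EDN1 was lowest at 8 h after TrypLE. The 7 means share samples' depth and the authors' choice of genes, and r is a description.

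The pathway around the cytokines was read from 14 lists of ligands, receptors, signalling genes and regulators. They hold 156 symbols, of which 27 were in the 0 h table, 21 lower and 6 higher after trypsin. The authors' deposited table has 14 of them past the threshold, all lower, and the median log2 fold change of the 27 is -0.45. Without the 3 cytokines it was 12 of 24, with a median of -0.47. Over all 1237 listed genes the median was -0.29, 57.1% were lower after trypsin and 20.3% passed. The lists were drawn up with earlier results of these data known, so these counts are no independent evidence.

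On the receptor side little was listed. Of 6 receptors of the IL-6 family, LIFR, the receptor of the related cytokine LIF, was listed, with 456.1 ± 82.3 normalized counts after trypsin and 327.5 ± 52.9 after TrypLE (n = 3 each, SD), short of the threshold in the authors' deposited table (adjusted p = 0.245). None of the 7 receptors of the IL-1 family, the 8 JAK and STAT transducers or the 10 genes of TGF-β signalling was listed. IRAK3, an inhibitor of IL-1 receptor signalling, was the 1 listed gene of 14 on that list, at 0.39 on the log2 scale and likewise short of it in the authors' deposited table (adjusted p = 0.353). S100A13, which takes part in the unconventional release of IL-1α, was the 1 listed gene of 13 on the processing list and was lower after trypsin in the authors' deposited table (log2 fold change -0.45, adjusted p = 0.0483).

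Regulators of NF-κB had lower means after trypsin, as had 57.1% of all listed genes. Of 13 subunits and inhibitors 3 were listed, all feedback inhibitors or regulators, and 2 passed, where 20.3% of all listed genes did. TNFAIP3, the ubiquitin-editing enzyme A20, averaged 1193.1 ± 173.2 normalized counts in trypsin libraries and 1722.5 ± 55.8 in TrypLE libraries (n = 3 each, SD), and it passed by the authors' deposited table (adjusted p = 0.00374). NFKBIZ, a nuclear IκB protein that is needed for IL6 induction in mice, was at -0.35 on the log2 scale by the authors' deposited table (adjusted p = 0.0382), while NFKBIA, the classical inhibitor, had -0.37 and did not pass (adjusted p = 0.129). Of 17 other cytokine and enzyme genes on the NF-κB target list, 4 were listed, all with lower means after trypsin, and 0 passed by the authors' deposited table. All 4 have an unadjusted p below 0.05 there, as has every listed gene. CXCL8 and CXCL10 are among the low-count genes left outside the authors' adjustment, so neither could pass. The chemokine CXCL8 had low counts, with 2.93, 1.02 and 5.29 normalized counts in the trypsin libraries, against 20.5, 12.8 and 12.2 in the TrypLE libraries. CXCL10, another chemokine, had 0 in each trypsin library, against 4.87, 4.58 and 6.08 in the TrypLE libraries. PTGS2, the inducible cyclooxygenase, had 24.1 ± 2.30 after trypsin and 44.9 ± 4.78 after TrypLE (n = 3 each, SD). TNFRSF12A, the receptor of TWEAK, was at -0.29 on the log2 scale by the authors' deposited table (adjusted p = 0.615).

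Among AP-1 factors and MAP kinase phosphatases, those listed all had lower means after trypsin, as had 57.1% of all listed genes. The counts that passed stand beside 20.3% of all listed genes. Of 14 AP-1 and CREB factors 5 were listed and 4 passed, namely ATF3, FOSB, MAFF and FOS, for which the authors' deposited table gives log2 fold changes of -1.22, -1.11, -0.72 and -0.53. FOSL1 had -0.31 and did not pass there (adjusted p = 0.363). Of 12 MAP kinases and phosphatases 3 were listed, and DUSP1, DUSP5 and DUSP6, which switch off MAP kinases, passed, with -1.31, -1.47 and -0.70 by the authors' deposited table. Of 12 genes known as STAT3 targets or feedback genes, 4 were listed. MYC and MCL1 passed and were lower, whereas CEBPB and BCL3, at 0.37 and 0.35 on the log2 scale, missed the threshold by the authors' deposited table (adjusted p = 0.245 and 0.508). SOCS3, the usual feedback inhibitor of gp130, was not listed. Of 10 factors that act on the stability of cytokine RNAs, ZFP36L2 and RC3H2 were listed, at 0.27 and 0.30, and missed the threshold by the authors' deposited table (adjusted p = 0.566 and 0.628).

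The authors' pathway annotation places the cytokines in many pathways. In their deposited pathway table IL6 is named in 44 of 274 pathways, IL1A in 20 and IL11 in 4, and 3 pathways hold all of them. One of these is cytokine-cytokine receptor interaction, with 15 listed genes, 12 lower and 3 higher after trypsin, which did not pass the enrichment test of the authors' deposited table (adjusted p = 1.000). IL1A and IL11 were the 2 of these 15 genes that passed, where 20.3% of all listed genes passed and 57.1% were lower after trypsin. The 15 include CXCL8 and CXCL10, which could not pass. Among the others, CXCL14, an epithelial chemokine, had a mean normalized count of 5364.2 after trypsin and 6308.8 after TrypLE, and GDF15, a stress-induced cytokine, had 1884.0 after trypsin and 2292.6 after TrypLE. Neither passed in the authors' deposited table (adjusted p = 0.482 and 0.581). Of the 50 pathways that hold a cytokine, the authors' deposited table has 2 past the threshold, and both hold IL6 and IL1A. These 2 pathways are non-alcoholic fatty liver disease and Alzheimer disease. The former has 42 listed genes, 41 lower and 1 higher (adjusted p = 5.06e-10 by the authors' enrichment test). The latter has 59 listed genes, 52 lower and 7 higher (adjusted p = 3.80e-05 by the same test). IL6 and IL1A are 2 of these 42 and 2 of these 59 genes. The test counts every listed gene whatever its adjusted p, so it is no result on the cytokines. The IL-17 pathway, which leads to NF-κB and AP-1, had 12 listed genes, 11 lower and 1 higher, and the authors' deposited table gives p = 0.0105 and adjusted p = 0.262.

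Of the 24 other pathway genes in the 0 h table, 11 also had group means over time. At 0 h after trypsin, 9 of the 11 were below the control, as were 75.9% of the 340 genes, while IL6 was 3.83 times and IL11 1.26 times the control. The exceptions were NFKBIZ, with 44.4 after trypsin and 28.0 in the control, and MCL1, with 70.7 after trypsin and 64.0 in the control. At 0 h after TrypLE, 6 of the 11 were above the control, as were 55.3% of the 340 genes, and NFKBIZ was the 1 at least 2-fold above, with 56.7 after TrypLE and 28.0 in the control. At 8 h all 11 were below the control after trypsin, against 57.9% of the 340 genes, and 8 of them by at least 2-fold, against 12.1%, while both cytokines were above it. After TrypLE at 8 h, 10 of 11 were below the control, against 63.2% of the 340 genes, as was IL11 but not IL6.

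Between the enzymes, 5 of these 11 genes were lower after trypsin at 0 h, higher at 8 h and lower at 24 h, as IL11 was. They were ATF3, DUSP1, DUSP5, FOSB and MCL1. Of all 340 genes 48 (14.1%) had this order. The 11 genes are all in the 0 h table, as are 206 of the 340, so the shares cover unlike sets. At 0 h 10 of the 11 were lower after trypsin, where the median log2 ratio over the 340 genes was -0.31. DUSP5 was at 15.2, 12.6 and 16.1 at 0, 8 and 24 h after trypsin and at 42.2, 4.98 and 36.0 after TrypLE. ATF3 was at 20.8, 25.7 and 43.0 after trypsin and at 48.3, 11.9 and 75.9 after TrypLE. Each had its lowest mean at 8 h after TrypLE, as IL11 had. IL6 was lower after trypsin at all 3 times, as were DUSP6, MAFF, NFKBIA and NFKBIZ and 40 (11.8%) of all 340 genes. These genes were set beside the cytokines with the values known, and the shares are descriptions.

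**Figure D5:**
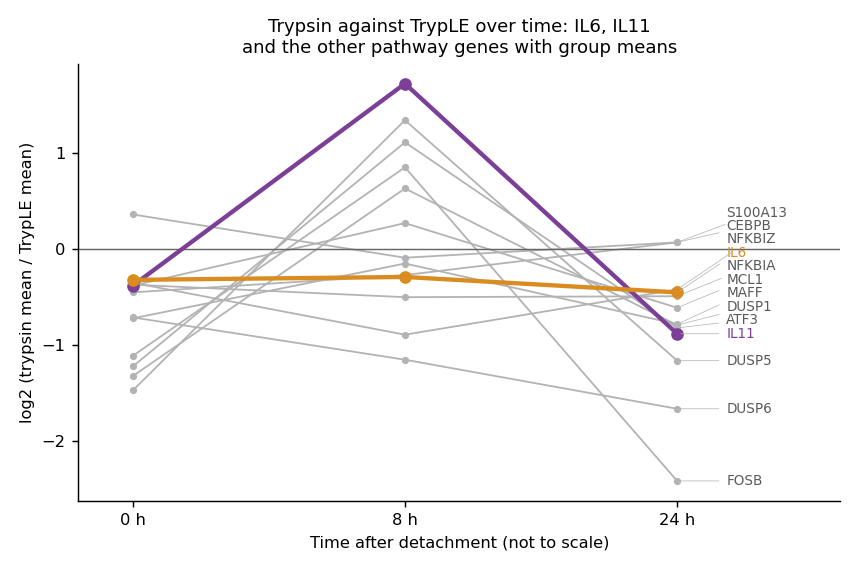
Log2 ratio of the trypsin mean to the TrypLE mean (y axis) at 0, 8 and 24 h (x axis) for IL6, IL11 and the 11 other pathway genes with group means (grey). Points are ratios of the authors' means without error. IL11 is at -0.38, 1.72 and -0.88, IL6 stays between -0.45 and -0.29, and the grey lines that cross 0 upward at 8 h are ATF3, DUSP1, DUSP5, FOSB and MCL1.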

How the data were processed

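The submitters' processing notes name HISAT2 2.0.5 (an aligner) and featureCounts 1.5.0-p3 (a read counter). No source used here names the build, the annotation or the authors' test. The library columns at 0 h hold a signal, the read count of each gene divided by a size factor for each library by the authors. Within a tolerance of 0.01 reads 100.0% of the values in each library were whole reads, and 1 library rests on fewer low values (98) than the others. The authors' deposited log2 fold changes are trypsin over TrypLE. Their deposited p-values and adjusted p-values follow a Benjamini-Hochberg adjustment over 15194 genes, and 101 listed genes of low count carry an adjusted p of 1 outside it. The deposited group means have no named unit. At 0 h each is a gene's normalized count over its length in kilobases, divided by a further 15.76 for trypsin and 15.72 for TrypLE, so these deposited values lie on an FPKM scale made by the authors. The deposited pathway table gives the count of listed genes per pathway, higher and lower.

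The main result is the authors' fold change and adjusted p, with a threshold of 0.05. Recovered reads of the listed genes were refitted with limma 3.58.1, edgeR 4.0.16 and DESeq2 1.42.0 (R 4.3.3), adjusted over 15194 genes. Unlisted genes have no refit p and cannot add to the ranks, so adjusted p-values of refits can be too high, above all large ones. Both count tests were tested on simulated data. By rule the text names the cytokines, pathway-list genes in the 0 h table and the 3 genes most like each cytokine. TJP1 comes from the marker lists. CXCL14, GDF15, EGR1 and LOC103219498 fall outside that rule and were named after their values were seen. The cytokines, lists and tests were chosen with earlier results of these data known. Refits by DESeq2 without 1 library were added after seeing the data. Python 3.11.15, pandas 2.3.3, numpy 2.4.6 and matplotlib 3.10.9 were used. Promoter motifs were planned and are not reported here.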

Additional observations from a re-analysis of the deposited data

How the results depend on the processing

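The log2 fold changes of IL6, IL1A and IL11 were below 0 in all 23 refits run. IL1A kept its call in 7 of them and IL11 in 1. A lost call can partly reflect the adjustment, to whose ranks unlisted genes cannot add. IL1A lost it in edgeR with TMM factors (-0.45), median-ratio factors (-0.42), no expression filter (-0.62), the replicate block (-0.63) and the length trend removed (-0.60), and in limma (-0.63 at each pseudocount). IL11 lost it in edgeR with the authors' factors, no expression filter or a mean of at least 100 (-0.38 each), with TMM factors (-0.21), median-ratio factors (-0.17), the replicate block (-0.37) and the length trend removed (-0.22), in DESeq2 (-0.38) and in limma (-0.37 at each pseudocount). Leaving out 1 library gave -0.76 to -0.51 for IL1A, -0.44 to -0.32 for IL11 and -0.47 to -0.23 for IL6, by edgeR and DESeq2 alike. IL1A was then called in 1 of 6 edgeR and 3 of 6 DESeq2 refits, IL11 in 0 and 1 (without TrypLE replicate 1, adjusted p = 0.0172), and IL6 in 0 and 1. The adjusted p of IL11 in these refits ran from 0.0172 to 1.00.

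Against 251 genes in the authors' table, the refits with the authors' factors called 170 by edgeR and 196 by DESeq2. Set against these 170, edgeR called 183 with TMM factors, 130 with median-ratio factors, 160 with no filter, 152 with a mean of at least 100, 167 with the replicate block and 56 with the length trend removed, and limma called 155, 146 and 151 at a pseudocount of 1, 0.5 and 5. Without 1 library the count ran from 95 to 217 by edgeR and from 110 to 383 by DESeq2, highest without trypsin replicate 1 in both. The cause was not tested. The mean IL11 level after trypsin was 8926.9 with TMM and 9031.1 with median-ratio factors, against 8408.4. Same-numbered libraries did not deviate together (correlations of -0.005, 0.072 and -0.047), with -0.090 to 0.096 for libraries of other numbers. With 3 libraries a group and genes picked for a group difference, this cannot show whether the numbers pair the samples. Group means at 8 and 24 h and in the control have no error, which limits every statement on them.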

Other observations

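The spread of IL11 among the trypsin libraries was below the approximate counting error of a single library, though 3 libraries cannot tell it from counting error. Its coefficient of variation was 0.404% after trypsin and 8.81% after TrypLE, where counting error for a single library is about 1.10% after trypsin and 0.941% after TrypLE. IL6 had 17.3% after trypsin and 9.37% after TrypLE, and IL1A 17.1% after trypsin and 11.8% after TrypLE. With 3 libraries each, these are values without a test.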
